A study of Homo sapiens with 4 samples.

Results

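Purine and pyrimidine nucleotide synthesis was examined as a set of 33 genes. Of the 30 that could be tested, 21 (70.0%) were lower in HCT116 spheroids than in monolayers and 0 were higher. Of all tested genes, 20.6% were lower and 19.0% higher. The genes were taken by symbol, from a list chosen with earlier results of these data known. Each was read from the probe set with the highest mean of the 4 arrays among those carrying that symbol alone. A probe set is a group of short probes on the array that reports a transcript. Of the 33 genes, 31 had such a probe set, against 19775 genes in the whole series. UCK2, whose probe sets also carried the symbol of a microRNA, and ADSS2 had none in the platform annotation used here and have no value.

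The study profiled HCT116, a human colon carcinoma line, in 2 untreated monolayer cultures and 2 untreated cultures grown as multicellular spheroids (MCS), cell aggregates grown in wells to which cells do not attach. Each culture was hybridized to its own oligonucleotide array. The study used the spheroid as a model of tumour tissue, with a dividing rim around a quiescent core. Each spheroid sample mixed cells of rim and core, so a smaller share of cells making a transcript and less transcript per cell cannot be told apart.

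Values are MAS5 signals in arbitrary units, and differences are spheroid minus monolayer on the scale log2(signal + 32), ± standard error, with n = 2 per group. Genes with a mean signal over 300 units were tested with limma, a linear model that shares the spread between replicates across genes, and called at an adjusted p under 0.05 over all 8721 tested genes. The number of arrays limits the precision, and the fit measures only the spread between these cultures.

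Among the quality measures, the 4 arrays had equal trimmed means (500.1). The ratio of 3' to 5' signal of the ACTB control, a sign of RNA quality, was 2.34 and 2.64 in monolayers against 2.82 and 3.0 in spheroids, while that of GAPDH was 1.07 and 1.02 against 0.931 and 0.921, and their part in the results was not tested. Of 6 epithelial markers 5 passed the filter, while VIL1 did not. EPCAM (25873 to 29021 units) and KRT18 overlapped between groups, CDH1 (1.73 ± 0.19) and KRT19 (0.79 ± 0.12) were higher in spheroids, and KRT8 was not called (-0.49 ± 0.19). The summed signal of 4 endothelial markers was 204 to 328 in monolayers and 156 to 160 in spheroids, and that of 5 leukocyte markers 289 to 543 and 310 to 529. Of 6 fibroblast markers, COL1A1 alone passed, higher by 1.64 ± 0.20 in spheroids, and the summed signal rose from 803 to 1098 in monolayers to 2413 to 2776 in spheroids. COL1A2, COL3A1, DCN, LUM and PDGFRB were at 1.23 to 78.2 on all arrays, and the part of COL1A1 in other results was not tested. MKI67, which encodes the proliferation marker Ki67, was lower in spheroids (-1.27 ± 0.15), and its part in the changes of the nucleotide genes was not tested.

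Cells build nucleotides along 2 kinds of route. De novo synthesis assembles the purine ring on phosphoribosyl pyrophosphate (PRPP), and the pyrimidine ring from glutamine, bicarbonate and aspartate before it is joined to PRPP. Salvage recycles free bases and nucleosides. Ribonucleotide reductase then turns ribonucleotides into the deoxynucleotides (dNTPs) of DNA, and several genes of this last step are expressed mainly in S phase. Drugs against these enzymes, such as antifolates and fluoropyrimidines, are long established in colon cancer.

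Among the 30 tested genes 21 (70.0%) were lower, against 20.6% of all tested genes, of which 39.6% were called in either direction. None was higher by limma, where 19.0% of all genes were, and 0 were higher at an unadjusted p under 0.05. Both spheroid arrays lay below both monolayer arrays for 24 of the 30 (36.6% of all genes), above them for 1 (33.4%), and the groups overlapped for 5 (30.0%). The median difference was -0.77, against -0.030 for all tested genes, whose 10th percentile was -0.74. The Bacillus control transcripts were 1.82-fold brighter in spheroids. Their geometric means were 700 and 787 in monolayers against 1640 and 1113 in spheroids, so the spheroid arrays also differed between themselves. Scaling the arrays to these controls moved the median of all genes to -0.87 and that of the nucleotide genes to -1.62. With that scaling 24 of the 30 were lower and 0 higher, beside 3996 genes lower and 183 higher in all, where the usual scaling gave 1799 and 1656. Values elsewhere keep the usual scaling, with equal trimmed means of the arrays, unless another is named.

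**Figure D1:**
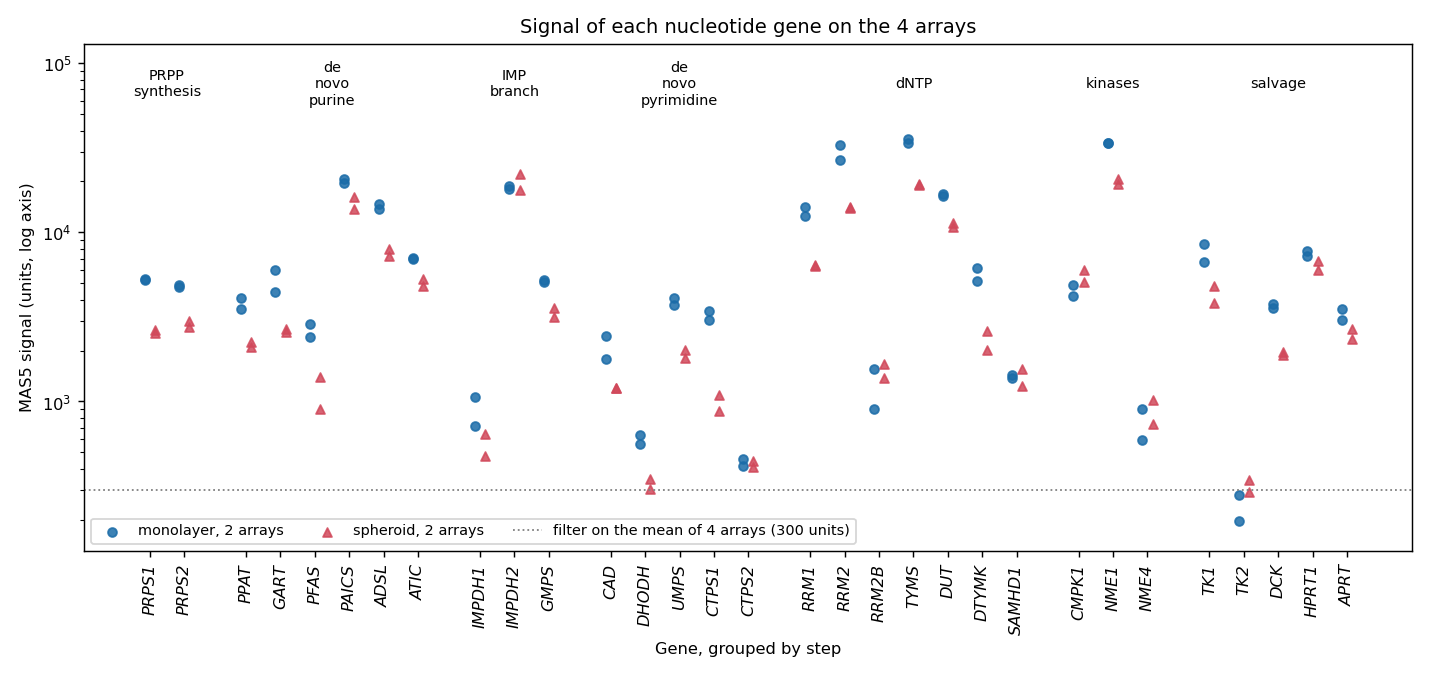
MAS5 signal (y, log axis) of the 31 nucleotide genes with a probe set (x, grouped by step), with circles for the 2 monolayer arrays and triangles for the 2 spheroid arrays; the dotted line marks the filter of 300 units on the mean. The triangles lie below the circles for 24 of the 30 tested genes, while CTPS2, IMPDH2, RRM2B, SAMHD1 and NME4 overlap, CMPK1 lies above, and TK2 is under the filter on average. Heights of different genes are not comparable.

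PRPP synthetases, which supply the activated ribose for both ring systems and for salvage of bases, were lower for both members. PRPS1 had signals of 5295 and 5210.2 in monolayers against 2635 and 2539 in spheroids, a fall to 0.492 of the monolayer mean (-1.01 ± 0.14, limma adjusted p = 0.000173). PRPS2 had 4774 and 4884 against 2773 and 2997 (-0.74 ± 0.14, limma adjusted p = 0.00152). Replicates of either gene differed by far less than the groups.

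All 6 enzymes that build inosine monophosphate (IMP), the first complete purine nucleotide, were lower in spheroids. PPAT, which commits PRPP to the pathway, had signals of 3519 and 4085 in monolayers against 2109 and 2239.7 in spheroids (-0.79 ± 0.15, limma adjusted p = 0.0016). GART, which carries 3 of the following activities on 1 protein, had 4413 and 5986 against 2571 and 2687 (-0.96 ± 0.17). PFAS, another enzyme on the way to IMP, had 2399.6 and 2855 against 901 and 1401, the largest decrease of the 6 (-1.20 ± 0.21, limma adjusted p = 0.000862). For these genes the spheroid arrays lay below the lower monolayer array by a wide margin, although the GART monolayers and the PFAS spheroids were far apart among themselves.

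The later steps to IMP fell by unequal amounts. ADSL, which acts here and again on the way to AMP, had signals of 13702 and 14707 in monolayers against 7959 and 7208 in spheroids (-0.90 ± 0.12, limma adjusted p = 0.000141). PAICS, which carboxylates the intermediate and couples it to aspartate, had 20699 and 19602 against 16215 and 13831 (-0.43 ± 0.12, limma adjusted p = 0.0126). ATIC, which closes the purine ring, had 6918 and 7037 against 5274 and 4847 (-0.46 ± 0.13, limma adjusted p = 0.0145). The groups did not overlap for any of the 3, where 36.6% of all tested genes had both spheroid arrays below both monolayer arrays. PAICS and ATIC had the smallest differences among the 21 lower genes. The call of PAICS ended without spheroid replicate 2 (-0.31), and that of ATIC without monolayer replicate 2 (-0.45) or spheroid replicate 2 (-0.40).

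PPAT and PAICS are neighbours on chromosome 4, transcribed away from each other, and the bases between their starts are shown because both of these purine genes fell. In RefSeq (GRCh38.p14) the start of PPAT on the minus strand and the nearest of the 3 starts of PAICS on the plus strand are separated by the 136 bases of chr4:56435616-56435751, printed here on the plus strand in lower case, since none of the motifs searched below lies wholly within them. Of these bases 75% are G or C.
PPAT and PAICS: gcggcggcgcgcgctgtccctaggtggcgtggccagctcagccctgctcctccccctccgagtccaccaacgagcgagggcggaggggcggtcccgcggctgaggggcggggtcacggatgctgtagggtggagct

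The branch from IMP to adenylate and guanylate moved less uniformly. GMPS, which makes GMP, had signals of 5198 and 5092 in monolayers against 3586 and 3172 in spheroids (-0.60 ± 0.14, limma adjusted p = 0.00513). IMPDH2, the IMP dehydrogenase isoform usually raised in dividing cells, had 18043 and 18862 against 22257 and 17794 (0.11 ± 0.12, limma adjusted p = 0.517). IMPDH1, the other isoform, had 1065 and 717 against 646 and 475 (-0.63 ± 0.25, limma adjusted p = 0.0587). GMPS was thus the 1 gene of this branch that was called, the IMPDH2 arrays overlapped, and the 95% interval of IMPDH2 ran from -0.16 to 0.38. IMPDH1 lay below in both spheroids but was not called, although it was with quantile normalization (-0.73), spike-in scaling (-1.45) or the replicate block, and without monolayer replicate 2 (-0.90) or spheroid replicate 1 (-0.84). Without monolayer replicate 1 it was at -0.35 and without spheroid replicate 2 at -0.42, with no call.

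Pyrimidine synthesis held the largest decrease of the 30 tested genes. CTPS1, which converts UTP to CTP, had signals of 3038 and 3437 in monolayers against 873 and 1099 in spheroids, so that the monolayer mean was 3.28 times the spheroid mean (-1.69 ± 0.18, limma adjusted p = 2.5e-05). Only 7 of the 8721 tested genes (0.0803%), CTPS1 included, had a difference this low or lower. CTPS2, its paralogue on the X chromosome, had 455 and 414 against 447 and 411 (-0.016 ± 0.23, limma adjusted p = 0.963). Its arrays overlapped, with a 95% interval of -0.52 to 0.49, and a second CTPS2 probe set gave 0.36.

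The 3 earlier proteins of the pyrimidine route were lower as well. CAD, the trifunctional protein that starts it, had signals of 2455 and 1789.9 in monolayers against 1209 and 1205 in spheroids (-0.78 ± 0.19, limma adjusted p = 0.00615). DHODH, the mitochondrial enzyme that passes electrons from dihydroorotate to the respiratory chain, had 562 and 631 against 302 and 349 (-0.81 ± 0.23, limma adjusted p = 0.0156). UMPS, which joins the ring to PRPP and yields UMP, had 3711 and 4092 against 1805 and 2018 (-1.02 ± 0.16, limma adjusted p = 0.000317). No groups overlapped. The call of CAD was lost without monolayer replicate 1 (-0.56), and that of DHODH, whose mean signal of 461 lay near the filter, without monolayer replicate 2 (-0.73) or spheroid replicate 1 (-0.72).

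The 250 bases before the first RefSeq start of CTPS1 (plus strand, GRCh38.p14, chr1:40979446-40979695) are given because this gene fell most of those tested. They are in lower case, since none of the motifs searched below occurs in them on either strand, and 72.0% of them are G or C.
CTPS1: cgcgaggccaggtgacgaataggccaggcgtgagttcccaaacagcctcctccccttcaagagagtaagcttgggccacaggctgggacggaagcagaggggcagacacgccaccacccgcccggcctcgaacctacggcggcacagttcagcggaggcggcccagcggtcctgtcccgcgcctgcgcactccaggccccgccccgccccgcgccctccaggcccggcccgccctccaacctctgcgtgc

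Of the 7 genes that make, guard or remove dNTPs, 5 were lower. RRM1, the large subunit of ribonucleotide reductase, had signals of 14131 and 12470.3 in monolayers against 6286 and 6371 in spheroids (-1.06 ± 0.13, limma adjusted p = 5.46e-05). RRM2, the small subunit made mainly in S phase, had 26651 and 32941 against 13913 and 14112 (-1.08 ± 0.12, limma adjusted p = 4.15e-05). RRM2B, the small subunit that p53 induces, had 1567 and 907 against 1376 and 1661 (0.33 ± 0.24, limma adjusted p = 0.29). Both subunits of the S phase enzyme were at about the same fraction of their monolayer level, whereas the RRM2B arrays overlapped and its 95% interval ran from -0.18 to 0.85. RRM2B was called higher without monolayer replicate 1 (0.72) and lay at -0.050 without monolayer replicate 2.

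The thymidylate steps moved with ribonucleotide reductase. TYMS, which methylates dUMP to dTMP and is the target of fluoropyrimidines, had signals of 33679 and 35540.1 in monolayers against 19386 and 19087 in spheroids (-0.85 ± 0.10, limma adjusted p = 6.62e-05). DTYMK, which phosphorylates dTMP, had 5164 and 6145 against 2611 and 2026, the largest decrease of the dNTP genes (-1.28 ± 0.17, limma adjusted p = 0.000107). DUT, which hydrolyses dUTP and so supplies dUMP, had 16849 and 16419 against 11426 and 10795 (-0.58 ± 0.11, limma adjusted p = 0.00163). None of the 3 overlapped between groups, and of all tested genes 36.6% likewise had both spheroid arrays below both monolayer arrays. SAMHD1, which degrades dNTPs, had 1436 and 1369 against 1548 and 1240.2, with overlapping arrays and a 95% interval of -0.41 to 0.38 (-0.017 ± 0.18, limma adjusted p = 0.951).

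**Figure D2:**
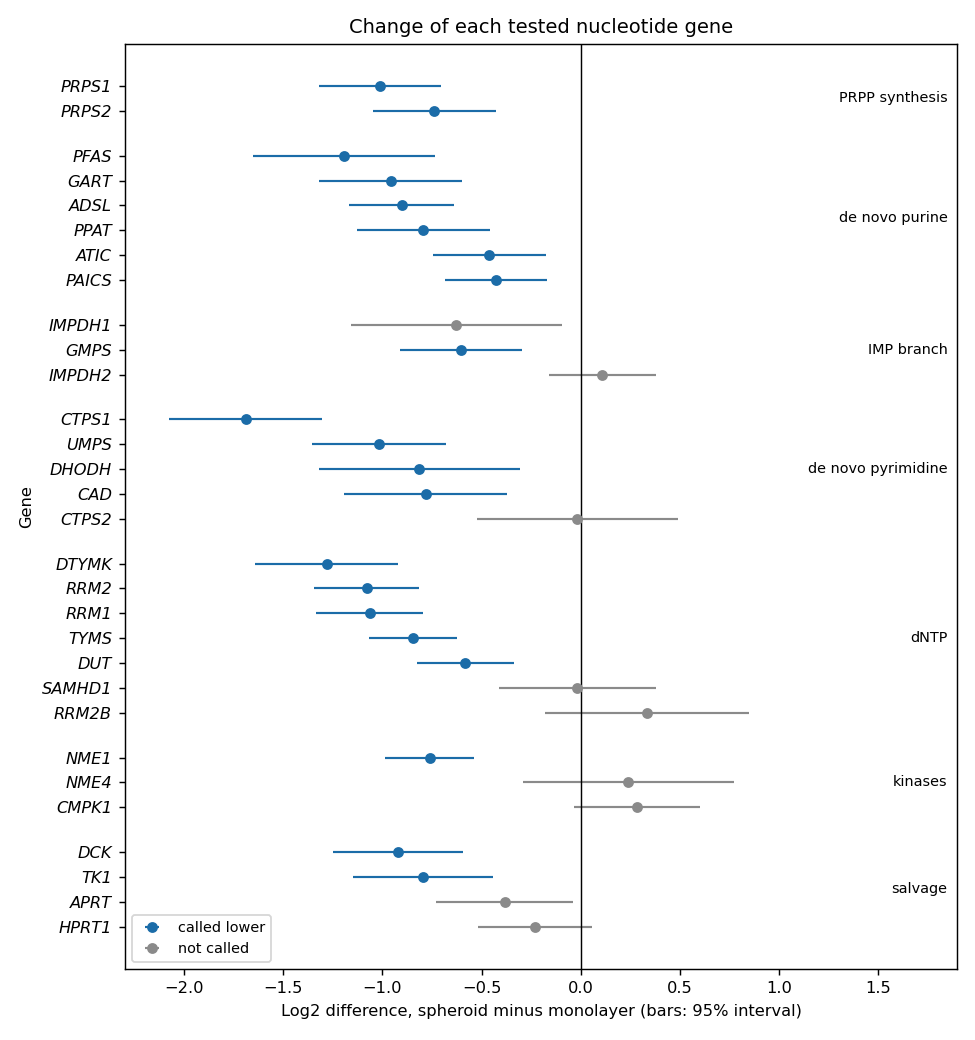
Log2 difference, spheroid minus monolayer (x, log2(signal + 32) scale), of the 30 tested nucleotide genes (y, grouped by step), with points for the fitted difference and bars for its 95% interval. CTPS1 lies farthest to the left at -1.69 and RRM2B farthest to the right at 0.33, and no gene is called higher.

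Short sites of the promoters are shown because several genes that fell, such as RRM1, RRM2, TYMS and TK1, are known as targets of E2F factors, and purine genes as targets of MYC. RefSeq promoter windows, from 250 bases before to 50 after a start, were at hand for 30 of the 33 genes and for 27305 genes in all. The E2F cores TTCCCGC or TTGGCGC, on either strand, occurred in windows of 10 of the 30 (33.3%) and of 11% of all genes. Among them were RRM1, RRM2, TYMS, TK1, DUT and DCK. The letters of the core are in capitals below, in its own or the reverse orientation, with 10 bases on each side, written along the strand of the gene.
RRM1 (plus strand, chr11:4094452-4094478): aagaaaaacgTTCCCGCcggttaggtt
RRM2 (plus strand, chr2:10122366-10122392): gggcccgcgcGCGCCAAggccgccgag
TYMS (plus strand, chr18:657604-657630): cgggacggccGCGGGAAaaggcgcgcg
TK1 (minus strand, chr17:78187048-78187074): agcggtcggcGCGGGAAccaggggctt
DUT (plus strand, chr15:48332145-48332171): ggcggggctgGCGGGAAatttcggttt

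The E-box CACGTG, which reads the same on both strands, occurred in windows of 6 of the 30 genes (20.0%) and of 8.77% of all genes. The 6 were ATIC, DCK, DHODH, NME1, PAICS and PPAT, of which PPAT and PAICS share 1 E-box. All 6, and all 10 genes with an E2F core, were among the 21 lower genes, where 70.0% of the 30 tested nucleotide genes and 20.6% of all tested genes were lower. DCK and PAICS had both an E-box and an E2F core. The pentamer CCAAT, on either strand, occurred in 12 of the 30 (40.0%) and 39.7% of all genes. Of these 12, NME4 and SAMHD1 were not called, UCK2 had no value and the rest were lower as well. A match describes the letters of these windows only, the E2F and E-box motifs do not overlap in the sites printed, and binding was not measured. The 30 genes with a window were not all among the 30 tested, since UCK2 had a window but no value. The 27305 genes with a window include genes that were not tested here. Whether the motifs had a part in the decreases was not tested. E-boxes of purine genes and of DHODH are in capitals below.
PPAT (minus strand, chr4:56435782-56435807): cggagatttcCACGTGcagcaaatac
ATIC (plus strand, chr2:215312003-215312028): gccggcgggcCACGTGataagcccgg
DHODH (plus strand, chr16:72008575-72008600): cgctactgcgCACGTGcacccaacca

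Of the 3 kinases that raise nucleotides to di- and triphosphates, NME1 alone was lower. NME1, a nucleoside diphosphate kinase, had signals of 33608 and 33923 in monolayers against 20556 and 19278 in spheroids (-0.76 ± 0.10, limma adjusted p = 0.00014). NME4, its mitochondrial relative, had 897 and 591 against 1022 and 734 (0.24 ± 0.25, limma adjusted p = 0.466). CMPK1, which phosphorylates UMP and CMP, had 4877 and 4188 against 5954 and 5103 (0.28 ± 0.15, limma adjusted p = 0.144). NME4 overlapped between groups, with a 95% interval of -0.29 to 0.77. CMPK1 was the 1 tested nucleotide gene with both spheroid arrays above both monolayer arrays, a pattern of 33.4% of all tested genes. The interval of CMPK1 was -0.034 to 0.60.

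In salvage, the kinases of deoxynucleosides and the transferases of purine bases differed in their calls. TK1, the cytosolic thymidine kinase of S phase, had signals of 8491 and 6651 in monolayers against 4848 and 3842 in spheroids (-0.80 ± 0.16, limma adjusted p = 0.00214). DCK, which phosphorylates deoxycytidine and activates nucleoside drugs, had 3765 and 3568 against 1891 and 1956 (-0.92 ± 0.15, limma adjusted p = 0.000536). TK2, the mitochondrial thymidine kinase, had 281 and 196 against 343 and 293, and with a mean of 278 it fell below the filter and was not tested. The tested genes closest above the filter were CTPS2 with a mean of 432 and DHODH with 461.

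The purine base transferases did not pass the main test. Both were called lower with spike-in scaling (HPRT1 at -1.09, APRT at -1.24), where the median of all genes was -0.87. APRT was also called lower with the replicate block, and a second APRT probe set gave -0.44. HPRT1, which returns hypoxanthine and guanine to nucleotides, had signals of 7285 and 7746 in monolayers against 6808 and 6008 in spheroids (-0.23 ± 0.13, limma adjusted p = 0.184). APRT, which salvages adenine, had 3542 and 3023 against 2672 and 2343 (-0.38 ± 0.16, limma adjusted p = 0.0742). Both had all spheroid arrays below the monolayer arrays, as had 36.6% of all tested genes. Their 95% intervals ran from -0.52 to 0.055 for HPRT1 and from -0.73 to -0.038 for APRT, which leaves room for decreases as large as that of PAICS.

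Set by route, the de novo genes had 13 of 16 tested members lower and a median of -0.79, with a range of -1.69 to 0.11. The dNTP genes had 5 of 7 lower and a median of -0.85 (-1.28 to 0.33). The salvage genes had 2 of 4 lower and a median of -0.59 (-0.92 to -0.23), and the kinases 1 of 3 and a median of 0.24. Of all tested genes 20.6% were lower, and with so few kinases 1 of 3 is not far from that share. The ranges of the routes overlapped, and the difference between routes was not tested. The salvage median rested on where TK1 and DCK were placed: counted with the dNTP genes, they left HPRT1 and APRT at a median of -0.31 with 0 of 2 lower by limma (adjusted p of 0.184 and 0.0742, with 1 at an unadjusted p under 0.05), while the dNTP median stayed at -0.85 with 7 of 9 lower.

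**Figure D3:**
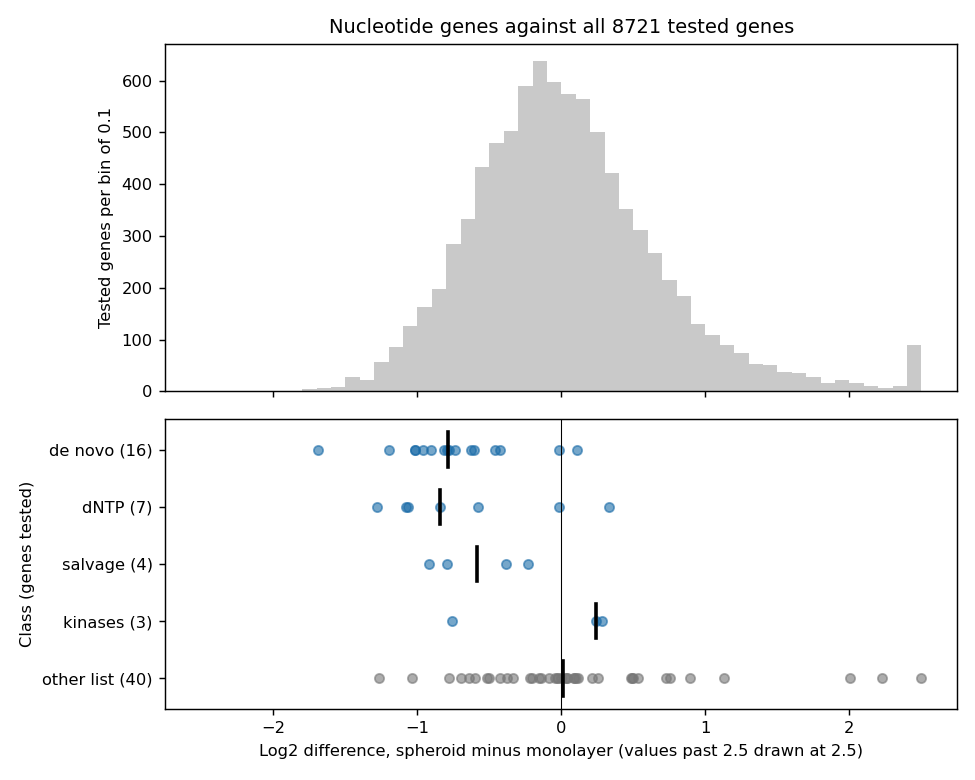
Log2 difference, spheroid minus monolayer (x, values past 2.5 drawn at 2.5), as a histogram of all tested genes (top) and as 1 point per tested gene for each route and for the list of other nucleotide genes (bottom), with a bar at each median. The medians of the de novo, dNTP and salvage genes are -0.79, -0.85 and -0.59, left of most genes, those of the kinases and the other list are 0.24 and 0.012, and the points of the routes overlap.

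In 5 pairs of related enzymes, the within-array log2 ratio shows whether members of a pair changed unequally. The ratio of CTPS1 to CTPS2 was 2.66 and 2.96 in monolayers against 0.92 and 1.35 in spheroids, a change of -1.67. That of RRM2 to RRM2B changed by -1.41, that of IMPDH1 to IMPDH2 by -0.74 and that of PRPS1 to PRPS2 by -0.28. That of TK1 to TK2 changed by -1.18, but rests on a TK2 signal below the filter. In each pair both spheroid ratios lay below both monolayer ratios, a direction that depends on which member is placed on top. Of all tested genes, taken singly, 36.6% had both spheroid arrays below both monolayer arrays and 33.4% had both above. Each two-sided exact permutation p was 0.333, the smallest that 2 arrays against 2 can give, so no pair could pass, with or without adjustment over the 5.

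Other probe sets of the same genes gave a check on the choice of 1 probe set per gene. Of the 21 lower genes, 14 had 18 further probe sets over the filter, and 17 of these were below 0, with a median of -0.85. A second TYMS probe set gave the largest decrease (-1.38). The exception was a GART probe set at 0.026, beside 3 further GART probe sets at -0.49 to -0.92. A second GMPS probe set lay at -0.074, and the mean of both GMPS probe sets was not called (-0.34, limma adjusted p = 0.101).

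**Figure D4:**
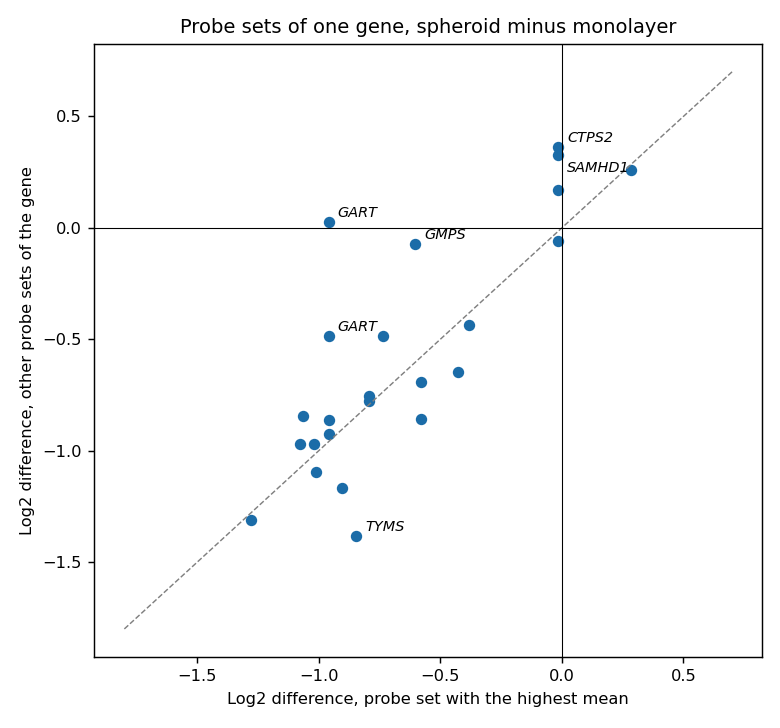
Log2 difference, spheroid minus monolayer, of the 24 further probe sets over the filter (y) against that of the probe set used for the same gene (x), with a dashed line where both are equal. Of the 18 further probe sets of lower genes 17 are below 0, and 1 of GART is at 0.026.

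Beyond these 33 genes, 66 others of nucleotide metabolism were listed, of which 58 had a probe set and 40 were tested. Of the 40, 10 were higher (25%) and 9 lower (22.5%), against 19.0% and 20.6% of all tested genes, with a median of 0.012. The counts, also those by kind, include CDA, CMPK2, ADSS1 and NUDT1, which passed the filter only through the group where they were high. The filter itself favoured a call for these genes, so the counts are a description. Breakdown and pool-cleaning genes had 5 of 13 lower and 3 higher, other salvage and interconversion genes 2 of 16 lower and 3 higher, adenylate, guanylate and nucleoside diphosphate kinases 1 of 9 lower and 4 higher, and transporters 1 of 2 lower.

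The 3 largest increases of this list were in genes dim in monolayers, which passed the filter only through their spheroid arrays, so that the filter itself favoured a difference and their values are given as a description. CDA, which deaminates cytidine, had signals of 79.1 and 74.6 in monolayers against 694 and 579.9 in spheroids (2.62 ± 0.28). CMPK2, a mitochondrial nucleotide kinase also induced by interferon, had 147 and 83.7 against 557 and 738 (2.23 ± 0.30). ADSS1, the muscle form of adenylosuccinate synthetase, had 142 and 69.5 against 533 and 471 (2.00 ± 0.32). None of the 3 overlapped between groups, and 33.4% of all tested genes had both spheroid arrays above both monolayer arrays.

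The 3 largest decreases among the called genes of the list were smaller in size. NUDT1, which clears oxidized purine nucleotides, had signals of 599.5 and 431 in monolayers against 200.2 and 186 in spheroids (-1.27 ± 0.27), and passed the filter only through its monolayer arrays, so this too is a description. SLC29A1, the equilibrative nucleoside transporter, had 1019 and 866 against 464 and 420.1 (-1.04 ± 0.21, limma adjusted p = 0.00226). AK6, an adenylate kinase of the nucleus whose gene overlaps TAF9, so that its signal is uncertain, had 4302 and 5205 against 2755 and 2738 (-0.78 ± 0.15, limma adjusted p = 0.0016). Again no groups overlapped, where 36.6% of all tested genes had both spheroid arrays below both monolayer arrays. UPP1, a uridine phosphorylase of the same list, had 344 and 497 against 192 and 139 and was below the filter, so it was not tested; it is named after its values were seen.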

How the data were processed

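Total RNA of 2 monolayer and 2 spheroid cultures of HCT116, named independent cultures in the methods, was hybridized to 4 Affymetrix U133 Plus 2.0 arrays. The deposited values are linear MAS5 intensity signals per probe set, made by the authors with MAS5 (version not given in the sources used here), with equal trimmed means on the 4 arrays. Of 54675 probe sets, 62 were controls, 41091 had 1 gene symbol in the platform annotation, 1801 several and 11721 were not listed. Per gene, the single-symbol probe set with the highest mean was taken, genes with a mean of 300 units or less were left out, and log2(signal + 32) was fitted with limma 3.58.1 in R 4.3.3 (intensity trend, Benjamini-Hochberg over 8721 genes, two-sided, 0.05). The fit had 2 residual and 10.5 prior degrees of freedom, and the median standard error was 0.19. MAS5 scaling assumes equal totals, which changes in total RNA would break. Alternatives covered the filter, the constant, the scaling, the probe set, the variance model, the replicate number as a block, leaving out each array and a t-test. This is Student's t-test per gene, which the study's methods name but do not describe for these arrays. It is called the methods' t-test below. Named genes were all members, the 3 largest calls in each direction of the other nucleotide genes, MKI67 and the markers. The members and lists were chosen with earlier results of these data known. Promoter windows are from RefSeq (GRCh38.p14), and protein sequences were not used here. The fit was also run on simulated data with independent noise and fewer changed genes than were called here. Its condition on recovered calls covered only differences larger than any of the nucleotide genes. Recovery at their sizes was not required.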

Additional observations from a re-analysis of the deposited data

How the results depend on the processing

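Of the 21 lower genes, 16 kept the call under every alternative that gave them a value but the methods' t-test, and 5 lost it under at least 1 (ATIC, CAD, DHODH, GMPS and PAICS), while 0 turned to a difference at or above 0. The methods' t-test, which the study does not describe for these arrays, called 0 nucleotide genes after Benjamini-Hochberg adjustment. By this t-test their lowest adjusted p was 0.0868, and 17 of them were at an unadjusted p under 0.05. The share of all tested genes at that unadjusted level was not counted, so the 17 are a description only. Of all tested genes it called 1 higher and 1 lower. ATIC and PAICS were not called without the intensity trend, and DHODH and PAICS without the signal filter. Without probe sets ending in _x_at or _s_at, 16 of 21 tested nucleotide genes were lower, against 1114 of all 6094 tested genes. That setting left the lower genes ADSL, PAICS, PPAT, RRM1 and UMPS with no value. In the other alternatives with all arrays, the count of lower nucleotide genes was 19 to 24. The count over all genes there ran from 1318 of 19775 (no signal filter) to 3996 of 8721 (spike-in scaling). The count higher was 0 to 1 leaving out 1 array (RRM2B, without monolayer replicate 1). Spike-in scaling gave 183 genes higher and 3996 lower. With the replicate number as a block, 23 nucleotide genes were lower and 1 higher (CMPK1), and all genes had 2301 lower and 2114 higher. The deviations of same-numbered arrays correlated at 0.32 over only 2 pairs, so the numbers were not taken to pair the arrays.

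The median of the nucleotide genes was -0.73 with quantile normalization, -1.62 with spike-in scaling, -0.74 with the mean of probe sets and -0.77 to -0.69 leaving out 1 array. The dNTP median was -1.71 with spike-in scaling, -0.95 with the mean of probe sets and -0.88 to -0.81 leaving out 1 array. The de novo median was -1.62, -0.71 and -0.82 to -0.74 in the same order. The salvage median was -0.38 with no filter or with a filter at 100 units, which add TK2, -1.44 with spike-in scaling, -0.80 without probe sets ending in _x_at or _s_at, -0.31 with TK1, TK2 and DCK moved to the dNTP genes and -0.73 to -0.45 leaving out 1 array.

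Only genes without a call changed sign. With spike-in scaling CMPK1 was at -0.57, IMPDH2 at -0.75, NME4 at -0.59 and RRM2B at -0.51. With the mean of probe sets CTPS2 was at 0.17 and SAMHD1 at 0.10, and without probe sets ending in _x_at or _s_at at 0.36 and 0.17. Leaving out 1 array, the ranges were -0.079 to 0.046 for CTPS2, -0.052 to 0.27 for IMPDH2, -0.048 to 0.53 for NME4, -0.050 to 0.72 for RRM2B and -0.17 to 0.14 for SAMHD1. The cause of these changes was not tested. With 2 arrays per group, the lone array left in a group is assumed to vary like the others.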
